A study of Saccharomyces cerevisiae W303 with 8 samples.

Results

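The genes described here encode the cytosolic translation factors and tRNA synthetases of budding yeast, Saccharomyces cerevisiae. They came from a list of 53 standard gene names, matched to the array through the systematic name of each open reading frame. All 53 were found, with 1 probe each, among the 6228 systematic names on the array. The list holds 35 translation factors, of which 26 act in initiation, 7 in elongation and 2 in termination, and 18 genes for cytosolic tRNA synthetases or their subunits. The cdc55 strain, by its label msn2msn4cdc55, carries mutations in MSN2, MSN4 and CDC55, and the control strain, msn2msn4, carries those in MSN2 and MSN4 and serves as the strain with CDC55. MSN2 and MSN4 encode related stress transcription factors, and CDC55 encodes a regulatory subunit of the protein phosphatase PP2A. Both strains are W303 and also bear in their labels the construct name pMsn2pMsn2DNES, so neither is a wild type. Cells grown in rich medium received 0.4 M NaCl, a hyperosmotic stress, and whole cells were harvested at 0 (untreated), 10, 20 and 30 min. By its title, the study is about the part that the Cdc55 form of PP2A plays, by way of Msn2 and Msn4, in transcription after hyperosmotic stress.

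Translation starts when initiation factors load the small ribosomal subunit with the initiator tRNA and bring it to the capped end of an mRNA. Elongation factors then deliver aminoacyl-tRNAs and move the ribosome along, and release factors end the chain at a stop codon. The tRNA synthetases supply this process by joining each amino acid to its own tRNA. In yeast, genes for the translation machinery and for ribosome assembly are known to be expressed at a lower level for a time after osmotic and other stresses. Msn2 and Msn4 are best known as activators of genes that respond to such stresses.

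Total RNA of each of the 8 samples was labelled with Cy5 and hybridised on a 2-colour Agilent array against Cy3-labelled RNA of the untreated control strain, 1 array for each strain and time, without dye swaps. Values below are log2 of Cy5 over Cy3 after loess normalisation within the array, so a gene above 0 had more RNA in that sample than in the common reference, and -1 is a ratio 2-fold lower. They are ratios, and say nothing of which gene is expressed more than another. The control array at 0 min compares RNA of 1 strain and condition with itself, and there the SD over the 53 genes was 0.18, against 0.15 over the 6108 probes tested. The 2 spots of a gene on an array differed with an SD of 0.20, and each of the 53 genes was well above background in Cy5 and in Cy3 on every array. The arrays had 93.1% to 98.6% of spots well above background in Cy5. With no repeated cultures, the standard errors and p-values come from a model over the 8 arrays: they rest on how far the strains' difference shifted among the 3 stressed times and hold no spread between cultures. In every set of 4 values below, the order is 0, 10, 20 and 30 min.

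The strains were checked first. CDC55 stood at -0.51, -0.21, -0.44 and -0.54 in the cdc55 strain, against 0.15, 0.17, 0.14 and 0.45 in the control strain, so it was lower on every cdc55 array, although its probe was well above background on all 8 arrays. MSN2 was well above background in Cy5 on 6 arrays and in Cy3 on 2. MSN4 was at -0.13, 1.10, 0.91 and 0.75 in the cdc55 strain, against 0.01, 1.06, 1.16 and 1.04 in the control strain, well above background on all 8 although both labels name msn4; where these probes lie relative to the mutated parts was not tested. Scanner files of 2 sample pairs carried each other's values and were exchanged back (control 10 min with cdc55 0 min, control 30 min with cdc55 20 min). The 3 files without a settings block belong to both 0 min arrays and to the control array at 10 min, so in the cdc55 strain file type and NaCl cannot be told apart. In the control strain file type sets 0 and 10 min apart from 20 and 30 min, and at 10 min it differs between the strains. In fits without the 10 min arrays it cannot be told apart from NaCl in either strain.

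Most of the 53 genes had lower ratios under NaCl in both strains. In the cdc55 strain 0 genes passed the test (limma, Benjamini-Hochberg adjusted p under 0.05 over 6108 probes), where 2.88% of all probes rose, 1.31% fell and 4.19% passed in either direction. In the control strain 10 genes fell, 0 rose and 43 did not pass, where 5.89% of all probes fell, 7.66% rose and 13.6% passed in either direction. The response, the mean of 10, 20 and 30 min minus 0 min, had a median of -0.42 in the cdc55 strain and of -0.43 in the control strain over the 53 genes, against 0.01 and 0.00 over all probes. It was negative for 44 of 53 genes in the cdc55 strain and for 44 of 53 in the control strain. With arrays centred on their median instead of loess (below, median centring), the split over all probes was 273 higher and 273 lower in the cdc55 strain, against 176 and 80 under loess, and 539 higher and 658 lower in the control strain, against 468 and 360. Under that scaling 3 of the 53 genes fell in the cdc55 strain and 25 in the control strain, and 0 rose in either. At an unadjusted p under 0.05 there were 18 lower and 0 higher in the cdc55 strain, where 12.4% of all probes were lower and 13.9% higher. In the control strain there were 25 lower and 0 higher, where 17.4% of all probes were lower and 17.1% higher. Both responses are taken against 0 min arrays that share 1 model and 1 reference RNA, so their likeness is a description.

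**Figure D1:**
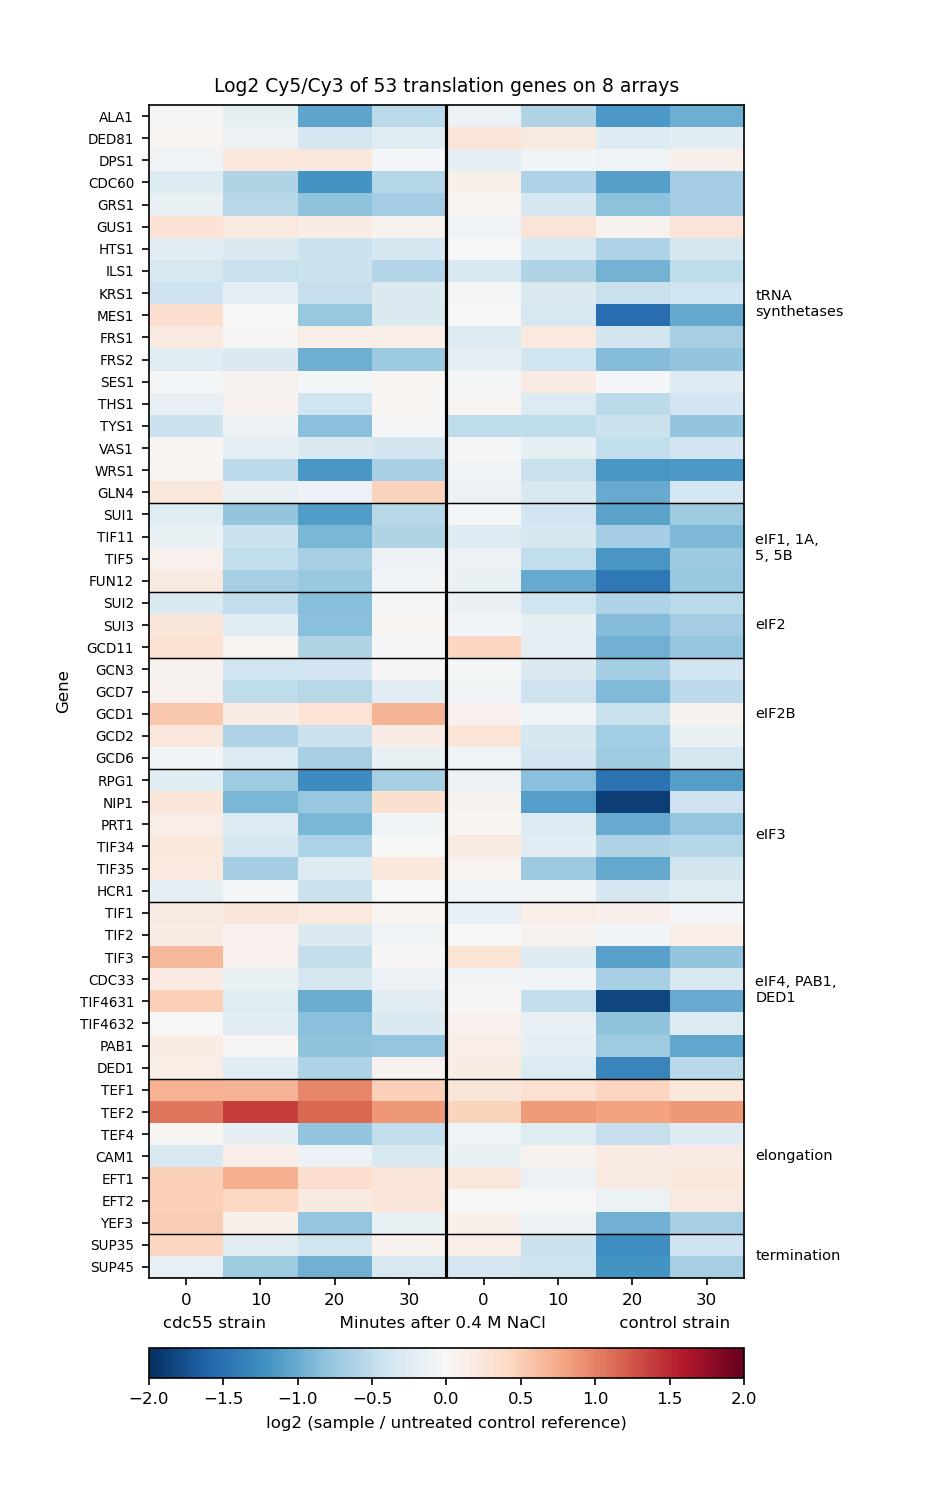
Log2 Cy5/Cy3 of the 53 genes (rows, ordered by role) on the 8 arrays (columns, minutes after NaCl, the cdc55 strain left and the control strain right); blue is below and red above the untreated control reference. The 20 min columns hold most of the dark blue cells in both strains, and TEF1 and TEF2 are red on every array.

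The lowest ratio of a gene came most often at 20 min. This held for 36 of 53 genes in the cdc55 strain and for 41 of 53 in the control strain, against 22.0% and 29.0% of all probes. The array medians of the 53 genes were 0.09, -0.19, -0.55 and -0.08 in the cdc55 strain, against -0.02, -0.28, -0.71 and -0.41 in the control strain. At 30 min 44 of 53 genes lay above their own 20 min value in the cdc55 strain and 45 of 53 in the control strain, against 45.0% and 55.3% of all probes. By then 11 genes in the cdc55 strain and 7 in the control strain were at or above their own 0 min value. All 3 stressed arrays lay below the 0 min array for 37 genes in the cdc55 strain and 40 in the control strain, and for 32 in both. Each of these times is 1 array per strain, so they carry no test. The counts against the 0 min array have no share of all probes beside them and describe the 53 genes only.

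**Figure D2:**
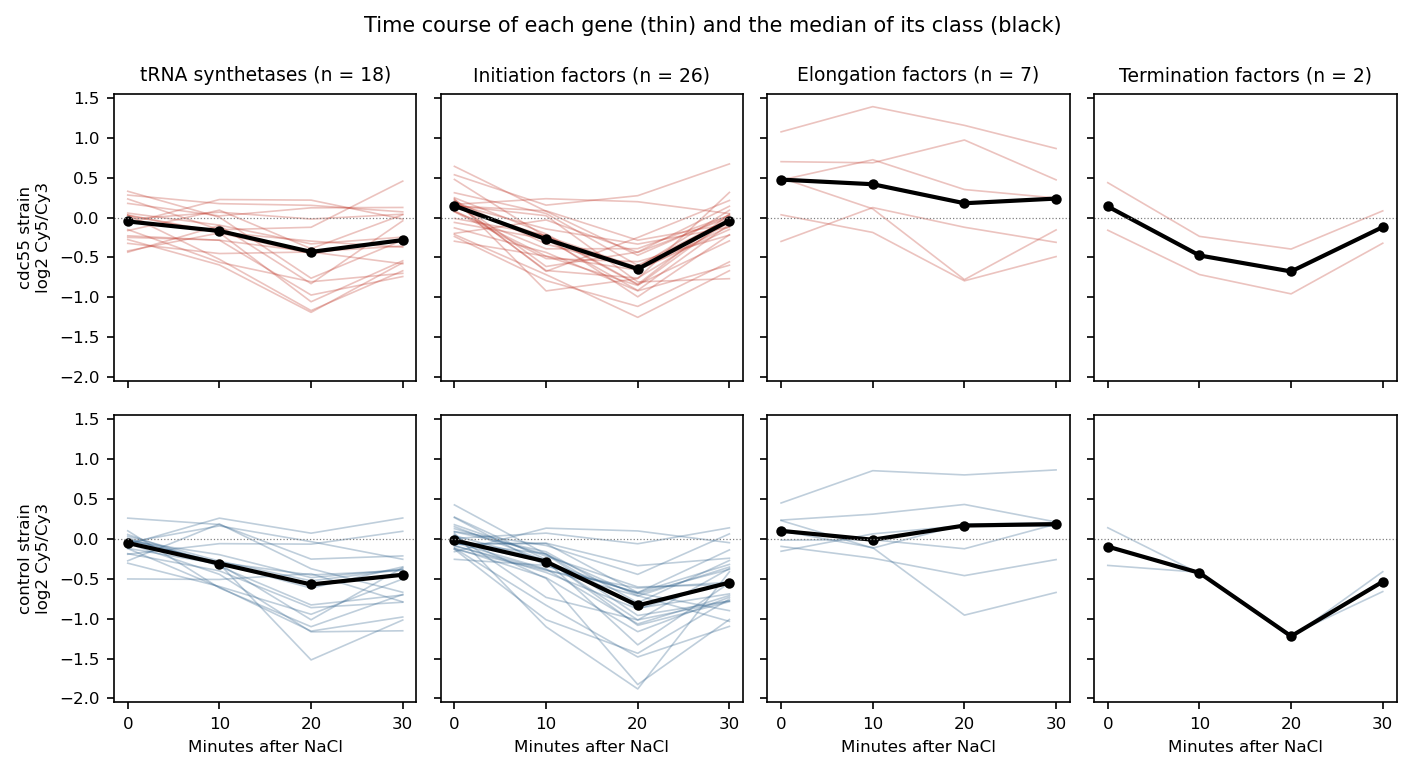
Log2 Cy5/Cy3 (vertical axes) against minutes after NaCl for synthetases, initiation, elongation and termination factors, with the cdc55 strain above and the control strain below; each thin line is a gene and the black line the median of the class. The initiation factor median is lowest at 20 min, -0.64 in the cdc55 strain and -0.83 in the control strain, while that of the elongation factors lies between -0.01 and 0.48 on all 8 arrays; under median centring the elongation factors too had a negative median response.

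Among initiation factors, 0 of 26 passed in the cdc55 strain, and in the control strain 7 fell, 0 rose and 19 did not pass. Their median response was -0.50 in the cdc55 strain and -0.65 in the control strain, with 25 of 26 genes negative in the cdc55 strain and 24 in the control strain. The 7 that fell were NIP1, TIF4631, GCD11, RPG1, TIF3, FUN12 and PAB1. Of the 10 genes that fell in the control strain, these and 3 synthetase genes, 0 passed without the 20 min arrays (adjusted p 0.200 to 0.268), in a smaller fit that called 32 higher and 1 lower over all probes. Their responses were still negative there, between -0.91 (GCD11) and -0.66 (MES1), against -1.20 (NIP1) to -0.78 (PAB1) with all arrays. None passed either when the 3 stressed times of a strain were taken as repeats of 1 group (adjusted p 0.248 to 0.373), or with the files as attached (0.779 to 0.790), where the exchanged arrays enter under the wrong label.

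eIF3 is the multi-subunit complex that binds the small ribosomal subunit and organises other factors on it. NIP1, its c subunit, was at 0.24, -0.92, -0.77 and 0.32 in the cdc55 strain, against 0.07, -1.10, -1.88 and -0.41 in the control strain. Its 20 min value in the control strain was the lowest of any of the 53 genes on any array, and at 30 min the cdc55 array was back above its own 0 min array. NIP1 had a response of -0.69 ± 0.28 (SE) in the cdc55 strain (adjusted p = 0.183), and fell by 1.20 ± 0.28 in the control strain (adjusted p = 0.0439). RPG1, the a subunit, stood at -0.21, -0.72, -1.25 and -0.67 in the cdc55 strain and at -0.12, -0.83, -1.48 and -1.10 in the control strain. Its response was -0.67 ± 0.18 in the cdc55 strain (adjusted p = 0.0973), and it fell by 1.02 ± 0.18 in the control strain (adjusted p = 0.0254). RPG1 was lowest at 20 min in both strains, and the strains drew apart after 10 min. The b, i and g subunits PRT1, TIF34 and TIF35 had responses of -0.56, -0.54 and -0.44 in the cdc55 strain and of -0.73, -0.64 and -0.76 in the control strain, and did not pass. HCR1, the loosely bound j subunit, stayed nearer to 0, at -0.20, -0.03, -0.44 and 0.00 in the cdc55 strain and -0.07, -0.05, -0.33 and -0.24 in the control strain; its responses, 0.04 ± 0.18 in the cdc55 strain (-0.02 with the Agilent log ratio) and -0.14 ± 0.18 in the control strain, did not pass. At 30 min all 6 eIF3 genes lay higher in the cdc55 strain, by 0.24 to 0.73, with 1 array per strain and no test.

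eIF2 is the GTP-binding factor that carries the initiator tRNA. GCD11, its gamma subunit, which binds GTP and the tRNA, was at 0.31, 0.05, -0.60 and -0.02 in the cdc55 strain, against 0.43, -0.19, -0.96 and -0.78 in the control strain. On the stressed arrays the 2 strains lay furthest apart at 30 min. GCD11 had a response of -0.50 ± 0.21 in the cdc55 strain (adjusted p = 0.198), and fell by 1.07 ± 0.21 in the control strain (adjusted p = 0.0309). The 0.43 from which that fall is taken came from the array where the control strain met its own RNA. With the Agilent log ratio the control response of GCD11 was -0.68 and did not pass (adjusted p = 0.0833). SUI2, the alpha subunit, whose phosphorylation slows initiation under stress, was at -0.30, -0.48, -0.85 and -0.02 in the cdc55 strain and at -0.13, -0.39, -0.62 and -0.54 in the control strain. SUI3, the beta subunit, had responses of -0.58 ± 0.26 in the cdc55 strain and -0.53 ± 0.26 in the control strain. Neither SUI2 nor SUI3 passed in either strain. At 30 min the 3 eIF2 genes lay 0.53 to 0.76 higher in the cdc55 strain, whereas at 20 min their differences (cdc55 minus control) ran between -0.24 and 0.36.

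eIF2B recharges eIF2 with GTP. Its genes GCN3, GCD7, GCD1, GCD2 and GCD6, for the alpha to epsilon subunits in that order, had responses of -0.53 to -0.17 in the cdc55 strain and of -0.65 to -0.25 in the control strain, all negative, and 0 of 5 passed in either. At both 20 and 30 min all 5 lay higher in the cdc55 strain, by 0.06 to 0.72 at 20 min and 0.20 to 0.61 at 30 min. GCD1 lay at 0.54, 0.16, 0.27 and 0.67 in the cdc55 strain and at 0.09, -0.08, -0.44 and 0.06 in the control strain, above the control array at each of the 4 times.

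SUI1 (eIF1), TIF11 (eIF1A) and TIF5 (eIF5) act in start codon recognition, and FUN12 (eIF5B) in joining the ribosomal subunits. FUN12 was at 0.18, -0.66, -0.76 and -0.06 in the cdc55 strain and at -0.13, -1.01, -1.43 and -0.75 in the control strain. It was higher in the cdc55 strain at each of the 4 times. FUN12 had a cdc55 response of -0.68 ± 0.19 (adjusted p = 0.101), and fell by 0.94 ± 0.19 in the control strain (adjusted p = 0.0332). SUI1 was at -0.24, -0.79, -1.11 and -0.56 in the cdc55 strain, against -0.05, -0.38, -1.07 and -0.71 in the control strain, with nearly equal values at 20 min. The responses of SUI1, TIF11 and TIF5 were -0.58, -0.52 and -0.51 in the cdc55 strain, against -0.67, -0.38 and -0.68 in the control strain, and did not pass.

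The eIF4 factors bind the mRNA cap and unwind the leader. TIF4631, the gene of 1 of the 2 yeast eIF4G scaffold proteins, was at 0.48, -0.24, -0.99 and -0.22 in the cdc55 strain and at 0.03, -0.49, -1.83 and -1.01 in the control strain, higher in the cdc55 strain at every time. Its response of -0.96 ± 0.23 was the most negative of the 53 in the cdc55 strain (adjusted p = 0.0756), and it fell by 1.14 ± 0.23 in the control strain (adjusted p = 0.0322). Its paralog TIF4632 was at -0.01, -0.22, -0.84 and -0.29 in the cdc55 strain and at 0.09, -0.16, -0.80 and -0.27 in the control strain. The strains lay 0.02 to 0.10 apart for TIF4632, whereas for TIF4631 they were 0.25 to 0.83 apart. TIF4632 did not pass, with responses of -0.44 ± 0.17 in the cdc55 strain and -0.50 ± 0.17 in the control strain. TIF3 (eIF4B, which aids the helicase) was at 0.64, 0.08, -0.47 and 0.03 in the cdc55 strain and at 0.27, -0.26, -1.08 and -0.79 in the control strain. TIF3 had a cdc55 response of -0.76 ± 0.20 (adjusted p = 0.0906), and fell by 0.98 ± 0.20 in the control strain (adjusted p = 0.0339).

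PAB1, the poly(A)-binding protein, was at 0.15, 0.02, -0.81 and -0.77 in the cdc55 strain and at 0.13, -0.19, -0.71 and -1.03 in the control strain, and unlike most of the genes it was not above its 20 min value at 30 min in the control strain. Its cdc55 response was -0.67 ± 0.19 (adjusted p = 0.104), and it fell by 0.78 ± 0.19 in the control strain (adjusted p = 0.0496), a call that was lost without the filter on dim probes (0.0510) and when the variance was allowed a trend with intensity (0.0581). DED1, an RNA helicase used in scanning, was at 0.13, -0.24, -0.62 and 0.09 in the cdc55 strain, against 0.15, -0.28, -1.33 and -0.55 in the control strain, and did not pass. Its responses were -0.38 ± 0.24 in the cdc55 strain (adjusted p = 0.361) and -0.87 ± 0.24 in the control strain (adjusted p = 0.0624). In the control strain DED1 did fall under median centring (adjusted p = 0.0415) and with the Agilent log ratio (0.0462). CDC33, which encodes the cap-binding eIF4E, had responses of -0.37 ± 0.19 in the cdc55 strain and -0.29 ± 0.19 in the control strain. TIF1 and TIF2 encode the same helicase, eIF4A, with identical proteins and near-identical genes, so their signals are uncertain as measures of either gene. TIF1 was at 0.17, 0.24, 0.20 and 0.05 in the cdc55 strain, against -0.16, 0.14, 0.10 and -0.05 in the control strain, with all values within 0.24 of 0. TIF2 was at 0.15, 0.08, -0.28 and -0.08 in the cdc55 strain, against 0.01, 0.07, -0.06 and 0.14 in the control strain. Their control responses of 0.22 and 0.04 turned to -0.54 and -0.70 under median centring, so no direction is given for them.

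**Figure D3:**
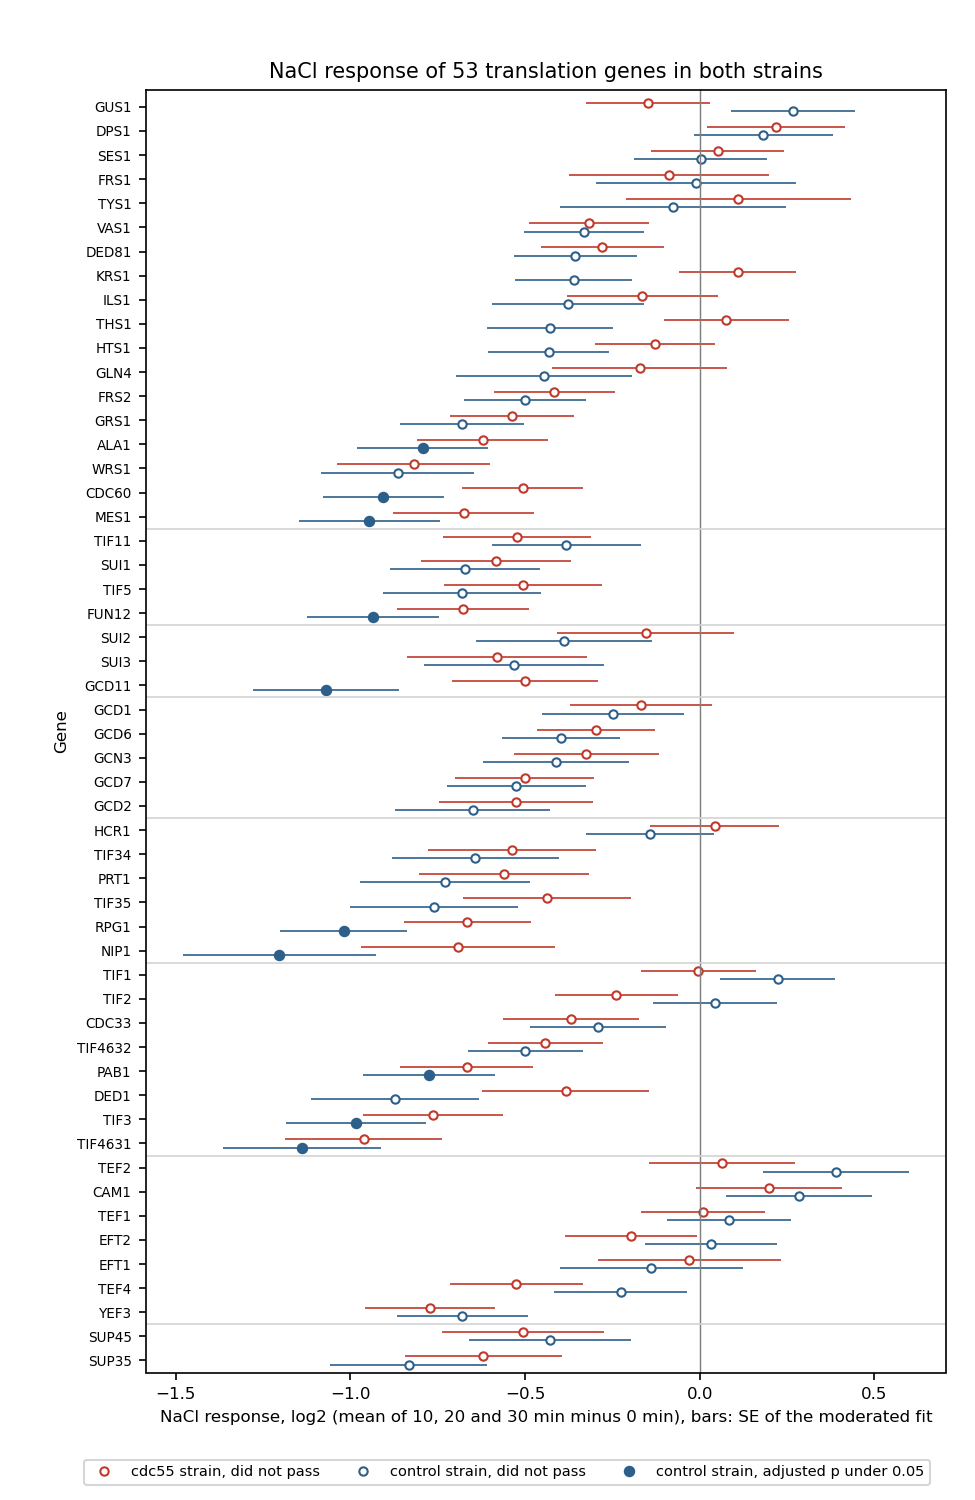
NaCl response (log2, mean of 10, 20 and 30 min minus 0 min) of the 53 genes in the cdc55 strain (red, upper point of each row) and the control strain (blue, lower point), with bars for the SE of the moderated fit and grey lines between role classes. Filled points mark the 10 genes that passed, all in the control strain and all negative; most other points also lie left of 0.

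The tRNA synthetases had a median response of -0.17 in the cdc55 strain and of -0.40 in the control strain, with 13 of 18 genes negative in the cdc55 strain and 15 in the control strain. In the cdc55 strain 0 of 18 passed, and in the control strain 3 fell (MES1, CDC60 and ALA1), 0 rose and 15 did not pass. MES1, the methionyl-tRNA synthetase gene, was at 0.33, 0.00, -0.76 and -0.28 in the cdc55 strain and at 0.00, -0.31, -1.52 and -1.02 in the control strain. It was higher in the cdc55 strain at all 4 times, by 0.32 to 0.76. MES1 had a cdc55 response of -0.68 ± 0.20 (adjusted p = 0.114), and fell by 0.95 ± 0.20 in the control strain (adjusted p = 0.0365). CDC60 (leucyl) was at -0.28, -0.59, -1.19 and -0.57 in the cdc55 strain, against 0.10, -0.61, -1.10 and -0.70 in the control strain. At each stressed time the strains lay within 0.13 of each other, and they differed mainly at 0 min. CDC60 had a cdc55 response of -0.51 ± 0.17 (adjusted p = 0.140), and fell by 0.91 ± 0.17 in the control strain (adjusted p = 0.0298). ALA1 (alanyl) was at 0.02, -0.19, -1.06 and -0.54 in the cdc55 strain, against -0.12, -0.61, -1.16 and -0.98 in the control strain, the higher in the cdc55 strain at every time. Its cdc55 response was -0.62 ± 0.19 (adjusted p = 0.116), and it fell by 0.79 ± 0.19 in the control strain (adjusted p = 0.0466).

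WRS1 (tryptophanyl) had the most negative response of the synthetase genes in the cdc55 strain and the third most negative in the control strain, and did not pass in either. It was at 0.03, -0.52, -1.17 and -0.67 in the cdc55 strain, against -0.06, -0.44, -1.16 and -1.15 in the control strain. The strains lay within 0.09 of each other up to 20 min and 0.48 apart at 30 min. Its responses were -0.82 ± 0.22 in the cdc55 strain (adjusted p = 0.0939) and -0.86 ± 0.22 in the control strain (adjusted p = 0.0526). GRS1 (glycyl) was at -0.15, -0.56, -0.80 and -0.70 in the cdc55 strain and at 0.06, -0.34, -0.83 and -0.70 in the control strain, nearly the same at 20 and 30 min. GRS1 had responses of -0.54 ± 0.18 in the cdc55 strain (adjusted p = 0.131) and -0.68 ± 0.18 in the control strain (adjusted p = 0.0549). GLN4 (glutaminyl) was at 0.23, -0.15, -0.12 and 0.46 in the cdc55 strain and at -0.12, -0.32, -1.01 and -0.36 in the control strain, a gap of 0.89 at 20 min, the widest of any synthetase gene at any time.

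HTS1 (histidyl), THS1 (threonyl) and KRS1 (lysyl) had responses of -0.13, 0.08 and 0.11 in the cdc55 strain, against -0.43, -0.43 and -0.36 in the control strain. THS1 was at -0.16, 0.09, -0.39 and 0.04 in the cdc55 strain, against 0.03, -0.28, -0.52 and -0.38 in the control strain. KRS1 was at -0.42, -0.19, -0.45 and -0.28 in the cdc55 strain, against -0.02, -0.29, -0.45 and -0.40 in the control strain, so that its lowest cdc55 values included the 0 min array. HTS1 was at -0.23, -0.28, -0.43 and -0.36 in the cdc55 strain and at 0.01, -0.30, -0.62 and -0.35 in the control strain. Under loess none of the 3 passed in any comparison. Under median centring the cdc55 responses of THS1 and KRS1 were negative (-0.19 and -0.22), and in the control strain all 3 fell, HTS1 by 0.80, THS1 by 0.88 and KRS1 by 1.01 (adjusted p = 0.0480, 0.0310 and 0.0205).

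DED81 (asparaginyl) was at 0.06, -0.10, -0.33 and -0.25 in the cdc55 strain, against 0.26, 0.18, -0.25 and -0.21 in the control strain, lower in the cdc55 strain at every time. It was 1 of 2 genes of the 53 with that pattern, beside TIF4632, against 22.4% of all probes; under median centring the mean difference over the stressed times was 0.07 for DED81 and 0.01 for TIF4632. VAS1 (valyl) was at 0.03, -0.18, -0.30 and -0.37 in the cdc55 strain and at -0.02, -0.20, -0.48 and -0.38 in the control strain. ILS1 (isoleucyl) had responses of -0.16 in the cdc55 strain and -0.38 in the control strain.

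DPS1, SES1 and GUS1 were within 0.28 of 0 on all 8 arrays, and TYS1 varied without a shared course in the strains. DPS1 (aspartyl) was at -0.08, 0.23, 0.22 and -0.02 in the cdc55 strain and at -0.19, -0.06, -0.06 and 0.10 in the control strain. SES1 (seryl) was at -0.02, 0.07, -0.02 and 0.04 in the cdc55 strain, against -0.04, 0.16, -0.03 and -0.25 in the control strain. TYS1 (tyrosyl) was at -0.43, -0.10, -0.83 and -0.04 in the cdc55 strain and at -0.50, -0.51, -0.44 and -0.79 in the control strain, with the widest standard error of the 53 (0.32 for either response). GUS1 (glutamyl) was at 0.28, 0.17, 0.15 and 0.07 in the cdc55 strain, against -0.07, 0.26, 0.07 and 0.26 in the control strain. None of these 4 passed, and the control responses of DPS1 and GUS1, 0.18 and 0.27, were -0.11 and -0.10 under median centring.

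FRS1 and FRS2 encode the beta and alpha subunits of 1 enzyme, the phenylalanyl-tRNA synthetase, and had unlike profiles. FRS1 was at 0.18, 0.02, 0.12 and 0.13 in the cdc55 strain, against -0.27, 0.19, -0.37 and -0.67 in the control strain. FRS2 was at -0.25, -0.28, -0.97 and -0.74 in the cdc55 strain and at -0.18, -0.40, -0.86 and -0.79 in the control strain, the same within 0.12 at every time. In the cdc55 strain FRS1 thus stayed between 0.02 and 0.18 while FRS2 was well below 0 at 20 and 30 min. The responses (SE) were -0.09 ± 0.29 for FRS1 and -0.42 ± 0.17 for FRS2 in the cdc55 strain, against -0.01 ± 0.29 and -0.50 ± 0.17 in the control strain; 0 of these 4 passed, and the difference between the subunits was not tested.

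**Figure D4:**
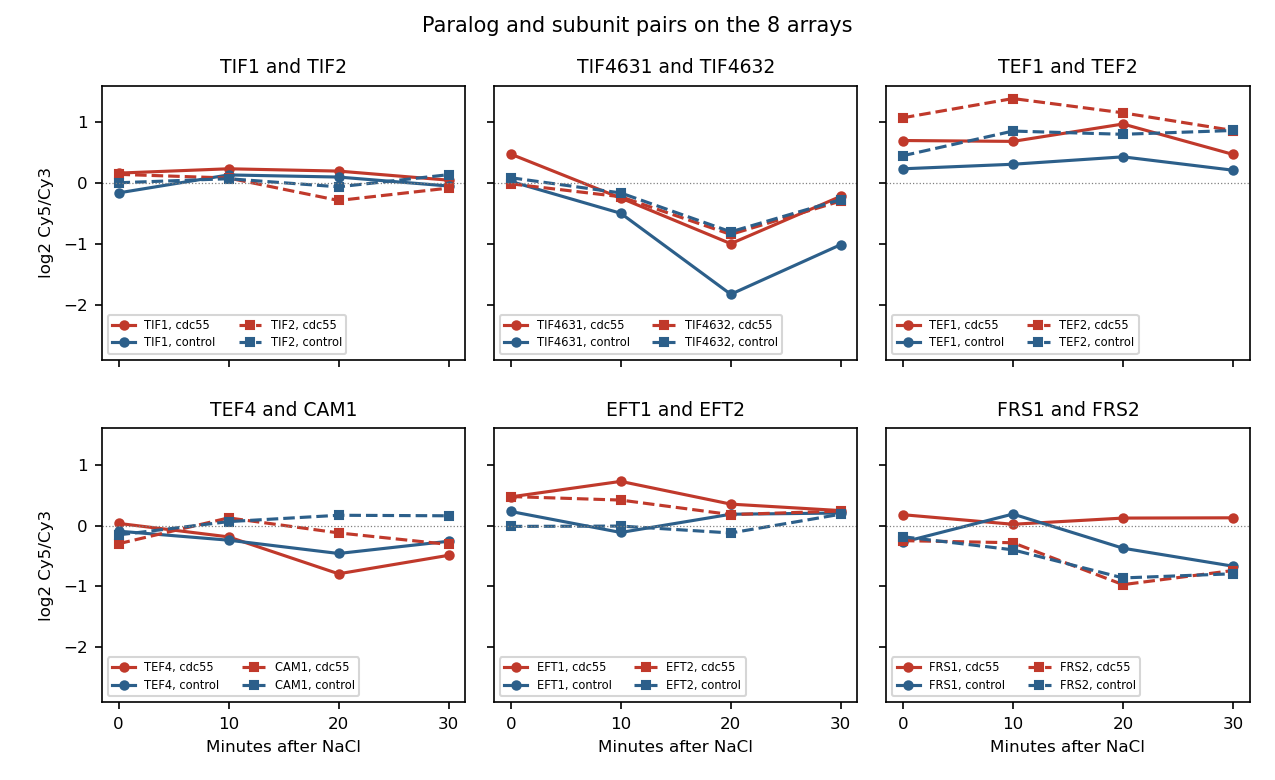
Log2 Cy5/Cy3 against minutes after NaCl for 5 paralog pairs and for the 2 subunit genes FRS1 and FRS2, with the cdc55 strain in red and the control strain in blue, the first gene of a pair as a solid line and the second dashed. TIF4631 in the control strain reaches -1.83 at 20 min while the other 3 lines of that pair lie there between -0.99 and -0.80, and FRS1 in the cdc55 strain stays flat above FRS2.

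The elongation factors did not share the profile of the initiation factors under loess normalisation, but this depended on the scaling. Their median response was -0.03 in the cdc55 strain and 0.03 in the control strain, and under median centring -0.37 in the cdc55 strain and -0.72 in the control strain, with 6 of 7 genes negative in each. With the Agilent log ratio it was -0.12 in the cdc55 strain and -0.03 in the control strain. These are the brightest of the genes, with a median log2 intensity of 17.36 against 15.59 over all 53 and 12.64 over all probes tested; its part in the result was not tested beyond these alternatives. Under loess none of the 7 passed in any comparison. Under median centring YEF3 fell in the cdc55 strain, and YEF3, EFT1 and TEF4 fell in the control strain, as did YEF3 there with the Agilent log ratio.

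YEF3 (eEF3, an elongation factor found in fungi) had the most negative response of the 7 in both strains, and its sign, like those of TEF4 and EFT1, was negative under loess, median centring and the Agilent log ratio. YEF3 was at 0.50, 0.11, -0.78 and -0.16 in the cdc55 strain and at 0.10, -0.11, -0.96 and -0.67 in the control strain. Its responses were -0.77 ± 0.19 in the cdc55 strain (adjusted p = 0.0791) and -0.68 ± 0.19 in the control strain (adjusted p = 0.0623). TEF4 and CAM1 encode forms of the gamma subunit of eEF1B, which recharges eEF1A. TEF4 was at 0.03, -0.19, -0.79 and -0.49 in the cdc55 strain and at -0.09, -0.24, -0.46 and -0.26 in the control strain. CAM1 was at -0.30, 0.13, -0.12 and -0.31 in the cdc55 strain and at -0.15, 0.06, 0.17 and 0.16 in the control strain, so at 20 and 30 min the control values of the pair lay on opposite sides of 0. Responses were -0.52 ± 0.19 for TEF4 and 0.20 ± 0.21 for CAM1 in the cdc55 strain, against -0.23 ± 0.19 and 0.28 ± 0.21 in the control strain.

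TEF1 and TEF2 encode identical eEF1A, which brings aminoacyl-tRNAs to the ribosome, and EFT1 and EFT2 identical eEF2, which moves the ribosome along; near-identical copies make each of these 4 probes uncertain as to gene. TEF2 was at 1.07, 1.39, 1.16 and 0.87 in the cdc55 strain, against 0.45, 0.86, 0.80 and 0.87 in the control strain, and was above 0 even where the control strain met its own RNA. TEF1 was at 0.70, 0.69, 0.97 and 0.47 in the cdc55 strain, against 0.24, 0.31, 0.43 and 0.21 in the control strain. EFT1 was at 0.47, 0.73, 0.35 and 0.24 in the cdc55 strain, against 0.23, -0.11, 0.19 and 0.21 in the control strain. EFT2 was at 0.48, 0.42, 0.18 and 0.24 in the cdc55 strain, against -0.01, -0.01, -0.12 and 0.19 in the control strain. For TEF1, EFT1 and EFT2 the cdc55 value was the higher at all 4 times, and for TEF2 at 0, 10 and 20 min, with both strains at 0.87 at 30 min.

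The release factors SUP35 (eRF3) and SUP45 (eRF1) act as a pair. SUP35 was at 0.44, -0.24, -0.40 and 0.08 in the cdc55 strain, against 0.14, -0.43, -1.24 and -0.41 in the control strain. SUP45 was at -0.16, -0.71, -0.96 and -0.32 in the cdc55 strain and at -0.33, -0.42, -1.20 and -0.66 in the control strain. Both were lowest at 20 min in both strains, and neither passed in any comparison of the main loess fit. In the control strain SUP35 did fall under median centring (adjusted p = 0.0291) and with the Agilent log ratio (0.0386). SUP35 had responses of -0.62 ± 0.22 in the cdc55 strain (adjusted p = 0.156) and -0.83 ± 0.22 in the control strain (adjusted p = 0.0600), and SUP45 of -0.51 ± 0.23 in the cdc55 strain and -0.43 ± 0.23 in the control strain.

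Under NaCl the genes were mostly higher in the cdc55 strain than in the control strain, by amounts that did not pass the test. The difference averaged over 10, 20 and 30 min was positive for 44 of 53 genes with a median of 0.18, against 0.01 over all probes. None of the 53 passed (limma, Benjamini-Hochberg), where 2.21% of all probes did, 0.36% higher and 1.85% lower. Over all probes that is 22 higher and 113 lower, against 146 and 257 under median centring, where 4 of the 53 genes passed, all higher (MES1, TIF3, TEF1 and EFT1). At an unadjusted p under 0.05 there were 12 higher and 0 lower, where 10.4% of all probes were higher and 14.2% lower. The largest differences were those of NIP1 (0.67 ± 0.20, adjusted p = 0.119), TIF4631 (0.63 ± 0.16, 0.0978), GLN4 (0.62 ± 0.18, 0.117), MES1 (0.60 ± 0.14, 0.0882), TIF3 (0.59 ± 0.14, 0.0886) and FUN12 (0.57 ± 0.13, 0.0858). The most negative were CAM1 (-0.23 ± 0.15), TEF4 (-0.17 ± 0.13), TIF2 (-0.14 ± 0.13) and DED81 (-0.13 ± 0.12), of which TEF4, TIF2 and DED81 turned positive under median centring.

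The count of genes higher in the cdc55 strain was 36, 35, 37 and 43 of 53 at 0, 10, 20 and 30 min, with medians of 0.12, 0.06, 0.18 and 0.30. Of all 6108 probes, 3089 were higher at 0 min and 3148 in the mean over 10, 20 and 30 min. Counts at 10, 20 or 30 min alone, here and within classes, have no share of all probes beside them and describe these genes only. Of the 35 factors 30 were higher at 30 min, with a median of -0.02 in the cdc55 strain and -0.41 in the control strain, while 13 of 18 synthetase genes were, with medians of -0.28 in the cdc55 strain and -0.45 in the control strain. The median strain difference at 30 min, taken over each gene's own difference, was 0.34 for factors and 0.12 for synthetases, and within the factors it was 0.48 for initiation, 0.42 for termination and 0.04 for elongation. The widest gap of all was that of NIP1 at 20 min, 1.12. The cdc55 array was higher at all 4 times for 18 of 53 genes, against 19.8% of all probes.

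The size of this strain difference depended on the 30 min arrays: without them its median was 0.10, with 36 genes positive and none past the test. Without the 10 min arrays the median was 0.24 and 11 genes passed, all higher in the cdc55 strain (MES1, FRS1, GLN4, FUN12, GCD1, NIP1, TIF35, TIF3, TIF4631, DED1 and SUP35). That smaller fit called 479 higher and 533 lower over all probes, against 22 and 113 with all arrays. Without the 20 min arrays the median was 0.22 with 0 past the test, where 0 of all probes passed either.

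**Figure D5:**
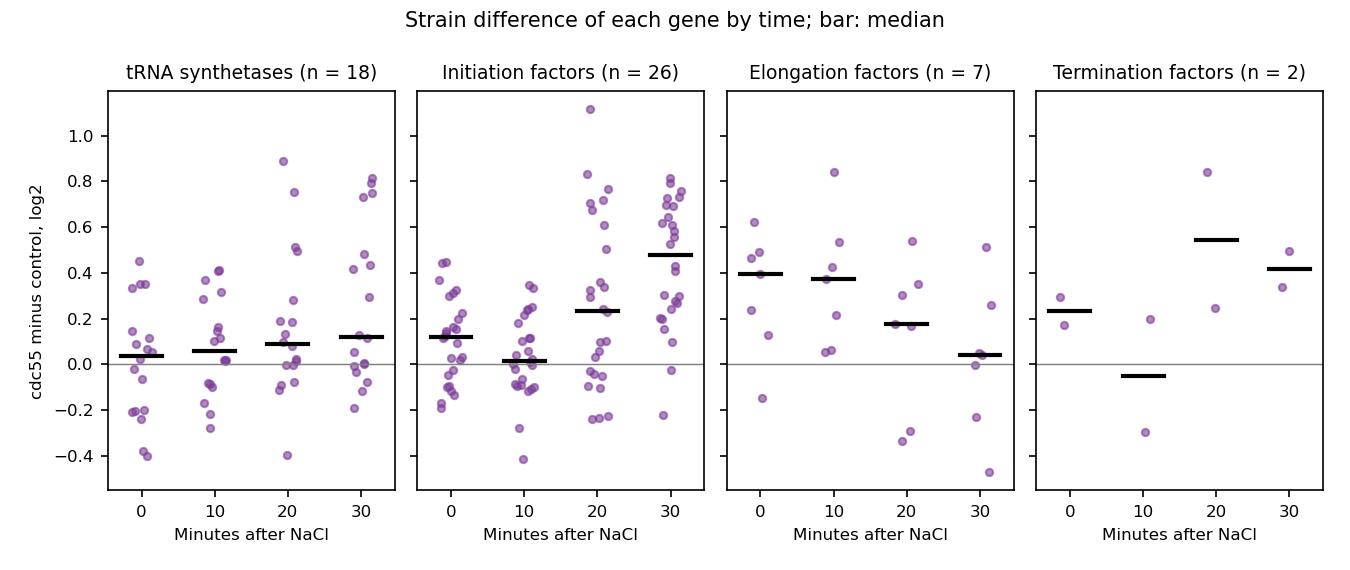
Difference between the strains (cdc55 minus control, log2) at each time for synthetases, initiation, elongation and termination factors; each point is a gene and the bar the median. The bar of the initiation factors is at 0.02 at 10 min and 0.48 at 30 min, and that of the elongation factors at 0.40 at 0 min and 0.04 at 30 min.

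Before NaCl, at 0 min, 36 of 53 genes were higher in the cdc55 strain, and the median difference was 0.12, against 0.00 over all probes. None passed, where 0.0491% of all probes did, all of them lower (3 probes, against 18 lower and 2 higher under median centring), and none had an unadjusted p under 0.05, where 1.87% of all probes were higher and 4.86% lower; this contrast rests on 1 array per strain and borrows its spread from the stressed arrays. The largest were the elongation factor genes TEF2 (0.62 ± 0.26, adjusted p = 0.748), EFT2 (0.49 ± 0.23, 0.777) and TEF1 (0.46 ± 0.22, 0.777). FRS1 (0.45 ± 0.35), GUS1 (0.35 ± 0.22) and GLN4 (0.35 ± 0.31) led the synthetases. On the negative side were KRS1 (-0.40 ± 0.21), CDC60 (-0.38 ± 0.21), HTS1 (-0.24 ± 0.21), SUI1 (-0.19 ± 0.26), SUI2 (-0.17 ± 0.31) and CAM1 (-0.15 ± 0.26). SUI2 was at 0.12 with the Agilent log ratio, and the other genes named here kept their sign under each scaling.

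The response itself was compared between the strains as an interaction, cdc55 response minus control response. It was positive for 39 of 53 genes with a median of 0.11, against 0.02 over all probes. None of the 53 passed and none had an unadjusted p under 0.05; over all probes 0% passed, and 0.393% were higher and 0.933% lower unadjusted. GCD11 (0.57 ± 0.30), NIP1 (0.51 ± 0.39), THS1 (0.51 ± 0.25), DED1 (0.49 ± 0.34), KRS1 (0.47 ± 0.24) and CDC60 (0.40 ± 0.24) had the largest positive values, that is, the response in the cdc55 strain was less negative or, for THS1 and KRS1, slightly positive. With the Agilent log ratio these values were 0.23, 0.35, 0.21, 0.54, 0.34 and 0.28 in the same order of genes, so their ranking depended on the scaling. GUS1 (-0.42 ± 0.25), TEF2 (-0.33 ± 0.30), TEF4 (-0.30 ± 0.27) and TIF2 (-0.28 ± 0.25) had the most negative, and those of TEF2, TEF4 and TIF2 turned positive under median centring. The counts of genes that fell, 0 in the cdc55 strain and 10 in the control strain, are therefore not shown to differ between the strains.

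Other genes of translation give the setting. Ribosome assembly genes, whose products build the subunits in the nucleolus, had a median response of -1.46 in the cdc55 strain and -1.95 in the control strain; 1 of 39 fell in the cdc55 strain (RIX7) and 22 of 39 in the control strain, led by SPB1 (-2.95 ± 0.55, adjusted p = 0.0282) and RRP12 (-2.94 ± 0.53, 0.0265). Cytosolic ribosomal protein genes had medians of -0.25 in the cdc55 strain and -0.42 in the control strain over 136 genes; 0 passed in the cdc55 strain, and 7 fell and 1 (RPL41A) rose in the control strain, where 5.89% of all probes fell and 7.66% rose, with many near-identical copies among them. Of 21 other cytosolic translation genes, 0 passed in the cdc55 strain and 3 fell in the control strain: NEW1, ANB1, an eIF5A gene, and RLI1, which recycles ribosomes. RLI1 was also 1.09 ± 0.12 higher in the cdc55 strain under NaCl (adjusted p = 0.0183), the only 1 of these 21 genes to pass there. The ribosome assembly genes were higher in the cdc55 strain under NaCl in 39 of 39 cases, with a median of 0.90, and 0 passed. Already at 0 min 39 of 39 were higher, with a median of 0.48, and 0 passed. The cytosolic ribosomal protein genes were higher in the cdc55 strain under NaCl in 128 of 136 cases, with a median of 0.29, and 1 passed.

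The 20 mitochondrial synthetase and translation factor genes lay mostly lower in the cdc55 strain: their median strain difference was -0.33 under NaCl (18 of 20 negative) and -0.36 at 0 min (19 of 20 negative). Their responses had medians of 0.13 in the cdc55 strain and 0.02 in the control strain. None passed in any comparison; 7 of 20 were lower in the cdc55 strain under NaCl at an unadjusted p under 0.05, where 14.2% of all probes were, the largest being MSR1, the mitochondrial arginyl-tRNA synthetase gene (-0.54 ± 0.18, adjusted p = 0.139). None of these lists was tested against another, and in whole-cell RNA a change per cell and a change in the share of total RNA cannot be told apart.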

How the data were processed

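Each deposited scanner file holds, per the file headers, the intensity of each spot and of its background for Cy5 and Cy3, and the log10 of their ratio as the Agilent software computed it. Saturated, non-uniform and well-above-background spots carry deposited flags of 0 or 1, as named in the file headers. In 5 files the software is named as Agilent Feature Extraction 10.5.1.1; the sources used here do not give the version for the other 3. A deposited value table has log2 values whose scale, centring and direction the authors' labels do not state. On all 8 arrays, 5646 (98.3%) of its 5742 complete rows matched a single probe's mean log2 ratio within 0.01 once the files were exchanged back, and 2 did with the files as attached, which settles scale and direction. Its column medians were 0.01, 0.00, 0.02 and 0.01 for the cdc55 strain and 0.00, -0.01, 0.05 and 0.00 for the control strain. Its rows (5676 of 6183) were named through these values.

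The fits were made with limma 3.58.1 in R 4.3.3, after Python 3.11.15 with pandas 2.3.3 and numpy 2.4.6 had read the intensities; matplotlib 3.10.9 drew the plots. The steps were normexp (offset 50), loess on each array, removal of non-uniform spots and averaging of the 2 spots of a probe; no spot was saturated. Of 6256 probes, 12 lacked a usable spot and 136 failed the filter on dim probes (well above background in Cy5 on at least 3 arrays), leaving 6108. Median Cy5 signals were 5523 to 13697 over backgrounds of 44 to 54. The highest was that of the cdc55 array at 0 min, against 7219 for the control array at 0 min, and its part in the results was not tested. The number of arrays limits the precision. The model had 6 coefficients (each time, and a strain term for 0 min and for the stressed times), 2 residual and 3.93 prior degrees of freedom, and Benjamini-Hochberg adjustment over all probes at 0.05. Adjusted p-values are from this limma fit or, where an alternative is named, from the limma fit of that alternative. It was tested on simulated data.

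Members, lists and alternatives were chosen with earlier results of these data known. Values on every array were given for the 3 most positive and 3 most negative synthetases and factors of each comparison, for paralog pairs, and for FRS1 and FRS2; RPG1, FUN12, PAB1, GCD1, SUP35 and SUP45 were added after their values were seen. Of the systematic names, 5740 of 6228 were in the RefSeq gene table and 488 kept the name in the file. For the 27 genes with several probes, none of them among the 53, the brightest was taken. No probe or promoter sequence was used here. Alternatives changed the file assignment, normalisation, source of values, dim-probe filter, variance trend, time and strain terms, arrays used and probes per gene.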

Additional observations from a re-analysis of the deposited data

Results flagged for a closer look

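GUS1, the glutamyl-tRNA synthetase gene, had its 3 stressed arrays below its 0 min array in the cdc55 strain and its 3 stressed arrays above its 0 min array in the control strain. The response was -0.15 ± 0.18 (SE) in the cdc55 strain and 0.27 ± 0.18 in the control strain, a difference of -0.42 ± 0.25 that did not pass (limma fit across all probes, adjusted p = 1.00). Over the alternatives the difference was between -0.49 and -0.18, while the cdc55 response was 0.13 with the Agilent log ratio and the control response was -0.10 under median centring.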

How the results depend on the processing

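Of the 10 genes that fell in the control strain, 10 still passed under median centring, without the 10 min arrays and with a constant strain difference. They also passed with the mean of all probes of a gene, but that setting could not change their values, as each has 1 probe. With the Agilent log ratio ALA1, GCD11, NIP1 and TIF3 were lost (adjusted p over the 10 genes 0.0246 to 0.0833), with the deposited value table GCD11 and TIF3 (0.0205 to 0.0750), and without the 30 min arrays ALA1 and PAB1 (0.0249 to 0.0953). Other genes were gained under these settings, all lower in the control strain. They were DED1, YEF3 and SUP35 with the Agilent log ratio, DED1, YEF3, SUP35 and WRS1 with the deposited value table, and WRS1 without the 30 min arrays. The count of 10 became 0 with the files as attached, 0 with the times of a strain as 1 stressed group, 0 without the 20 min arrays, 25 under median centring, 24 without the 10 min arrays and 30 with a strain difference held constant over time, which gives both strains the same response. The count of 0 in the cdc55 strain became 3 under median centring (TIF4631, PAB1 and YEF3), 8 without the 10 min arrays, 7 without the 30 min arrays and 30 with the constant strain difference; all were lower. The count of 0 for the strain difference under NaCl became 4 under median centring, 11 without the 10 min arrays and 7 with the constant strain difference, all higher in the cdc55 strain. Under each setting that raised these counts, calls in the same direction over all probes rose too (given above for median centring and below for the others). Medians over the 53 genes moved under median centring to -0.77 for the control response and 0.32 for the strain difference under NaCl, and with the files as attached to -0.0051 for the cdc55 response and -0.27 for the strain difference at 0 min. For the difference of responses 0 genes passed under every alternative. Apart from these constructions (fewer arrays, another scaling, another label) the cause was not tested.

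Over all probes, higher and lower calls for the cdc55 response were 176 and 80, against 454 and 507 if the 10 min arrays were left out, 13 and 0 if those of 20 min were, 465 and 459 if those of 30 min were, 22 and 0 with times as 1 group, and 0 with the files as attached. For the control response they were 468 and 360, against 861 and 889, 32 and 1, 560 and 532, 48 and 3, and 0 under those settings in turn. For the strain difference under NaCl they were 22 and 113, against 479 and 533, 0, 2 and 27, 4 and 27, and 0 in turn, and 34 and 178 with an intensity trend. At 0 min they were 0 and 3, against 17 and 55 without the 10 min arrays, 5 lower with the intensity trend and with the Agilent log ratio, and 0 without the 20 min arrays, with times as 1 group and with the files as attached. For the difference of responses they were 0, against 2 higher without the 10 min arrays. The constant strain difference gave 1284 higher and 1180 lower for the response, and 272 and 562 for the strain difference. Medians of all probes moved by 0.05 at most.

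No paired analysis was possible because each strain and time has 1 array and the labels give no replicate numbers; the time terms of the model already set the strains against each other within each time. With 2 residual degrees of freedom and no repeated cultures, a gene that did not pass is not shown to be unchanged.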

Other observations

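The 20 mitochondrial translation genes had a time profile unlike that of the cytosolic ones in the cdc55 strain. Their lowest value was at 30 min for 14 of 20 in the cdc55 strain and for 2 of 20 in the control strain, and at 20 min for 0 and 5 of 20. The share of all probes lowest at 20 min is given above. The counts lowest at 30 min have no such share beside them and describe these 20 genes only. In the cdc55 strain 0 of 20 lay higher at 30 min than at 20 min, against 11 of 20 in the control strain. They were below the control strain at all 4 times in 11 of 20 cases, where 22.4% of all probes were. Among the cytosolic ribosomal protein genes, 117 of 136 lay above their 20 min value at 30 min in the cdc55 strain and 74 of 136 in the control strain. The share of all probes above their 20 min value at 30 min is given above for each strain. In the control strain both lists were close to that share, so neither stood apart from all probes there. In the cdc55 strain the ribosomal protein genes lay above that share and the mitochondrial genes below it. These counts are over genes on 1 array per strain and time and carry no test.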
